A study of Mus musculus with 4 samples.

Results

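The genes described here are 39 liver genes of fatty acid oxidation, ketone body metabolism and acyl-CoA hydrolysis. They were chosen by symbol from the table rows whose platform annotation names exactly 1 gene, with the row of the highest mean signal taken where a gene had several. Of the 39, 36 had such a row, out of 22180 genes in all. The muscle-type carnitine acyltransferase gene Cpt1b, the omega hydroxylase gene Cyp4a10 and the peroxisomal thioesterase gene Acot8 had none and were not analysed here. Liver messenger RNA was measured on gene-level arrays in 2 groups of 2 samples, for 4 arrays in all. Both groups were wild-type male mice of the inbred strain C57BL/6J, entered into the study at 6 weeks of age. One group was fed a normal diet for 20 weeks. The other received for 20 weeks a diet lacking methionine and choline (the MCD diet, spelled "methionine-chorine-deficient" in the series title), a common mouse model of inflamed fatty liver in which the animals lose weight. The labels do not say whether a sample is the liver of a single mouse, nor whether the mice were fed or fasted when the livers were taken, so the p-values rest on sample-to-sample spread that may be technical.

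Fatty acids are broken down in the liver along 3 routes. Mitochondria take up long-chain acyl groups through the carnitine shuttle and shorten them by beta oxidation, peroxisomes do the same for very long-chain and branched acyl groups, and cytochromes P450 of the Cyp4a family hydroxylate the far (omega) end of the chain in the endoplasmic reticulum. Acyl-CoA thioesterases release free fatty acid and coenzyme A, and acetyl-CoA from oxidation can leave the liver as ketone bodies. Many of these genes are targets of PPAR-alpha, a nuclear receptor activated by fatty acids and by fasting.

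The MCD diet livers differed from the normal diet livers most in omega hydroxylation, in a mitochondrial thioesterase and in a kinase that restrains glucose oxidation, and less in the enzymes of the beta oxidation cycle. Acot2 rose 11.9-fold, Pdk4 8.12-fold, Cyp4a14 3.94-fold and Vnn1, whose normal diet arrays differ, 3.17-fold. Cyp4a12a fell 23.0-fold and Cyp4a12b 9.36-fold, while Acad11, Acaa1b and Echs1 were 1.46-fold to 1.902-fold lower. In limma, a linear model with moderated variances, 9 of the 36 genes (25.0%) passed an adjusted p of 0.05; 4 were higher on the MCD diet and 5 were lower. Among all genes tested 9.98% passed, 6.37% higher and 3.62% lower. An unadjusted p under 0.05 was reached by 16 of the 36 genes and by 5362 of all 22180. Calls were more frequent among bright genes, at 18.0% of the brightest 25%, to which 31 of the 36 genes belonged, 8 of them called. Both arrays of a diet lay above both of the other in 23 of the 36 genes, 6 higher and 17 lower. Over all 22180 genes this held for 54.2%, with 5535 higher and 6481 lower. The median log2 difference over the 36 genes was -0.20, beside -0.03 over all genes tested. Quantile normalization gave 4 higher and 3 lower genes, centring each array on its median gave 3 and 6, and the count was 5 without MCD diet replicate 1. The members and lists were chosen with earlier results of these data known, so these counts are a description.

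**Figure D1:**
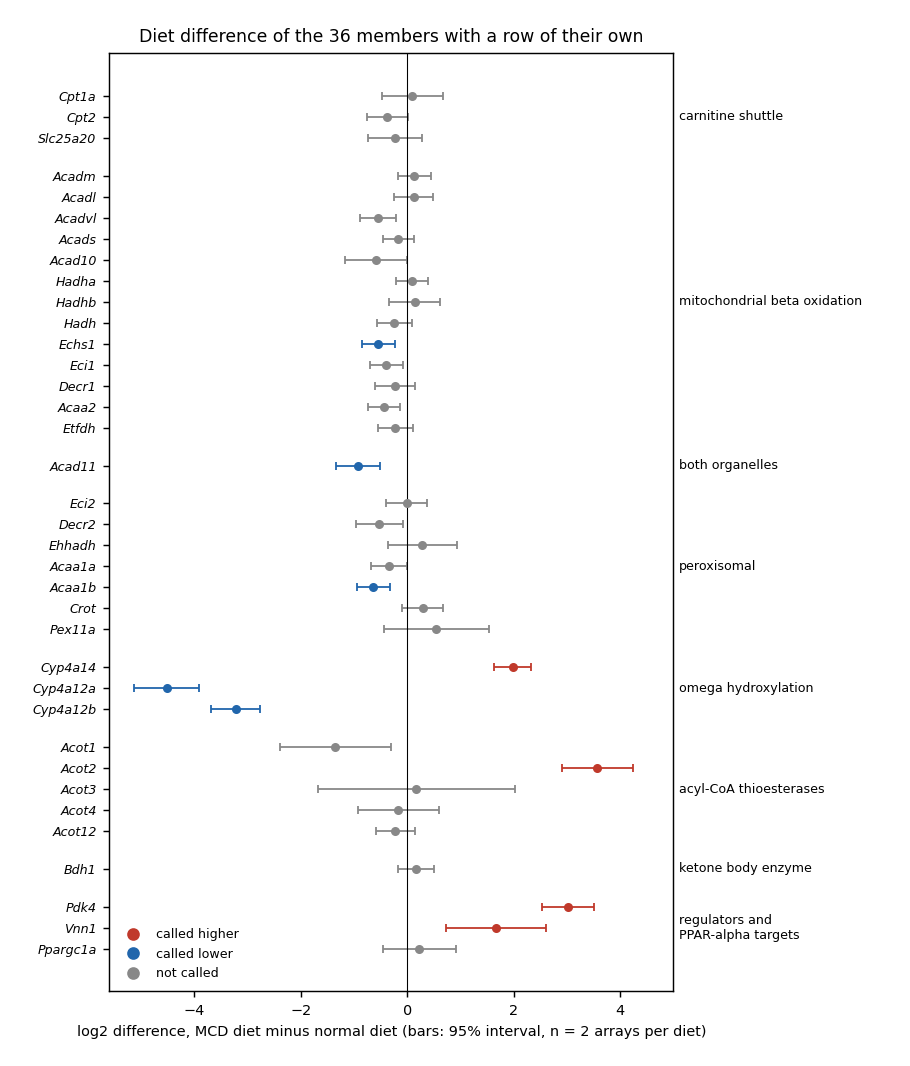
The horizontal axis gives the log2 difference between diets (MCD diet minus normal diet) for the 36 genes with a row of their own, grouped by role; points are means of 2 arrays per diet, bars are 95% intervals from limma, and colour marks the call. The omega hydroxylases, Acot2 and Pdk4 lie furthest from 0, while the mitochondrial beta oxidation genes lie between -0.58 and 0.14.

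Bulk liver RNA cannot tell fewer cells of a type from less RNA per cell. Hepatocyte markers were present at signals of 8.17 to 12.04 on all arrays, the upper end close to the highest signal of an array (12.07 to 12.13). Whether differences are compressed there was not tested. Of 10, 1 fell (Apoa1, by 0.50 ± 0.12) and 0 rose, with a median difference of -0.10. The unadjusted p was under 0.05 for 3 of the 10, all lower. The summed signal of the 10 was 109 on both normal diet arrays and 107 to 108 on the MCD diet arrays. Summed signals, here and below, add log2 values over genes, so the ratio of such sums is not a fold change. Macrophage markers rose in 8 of 9, with summed signals of 37.2 to 37.8 and 60.6 to 65.5, and cholangiocyte markers in 5 of 5, with 14.0 to 14.4 and 20.9 to 21.0. Stellate cell and fibroblast markers rose in 4 of 7, with summed signals of 35.3 to 37.4 and 42.2 to 44.7. Endothelial markers fell in 2 of 6 (35.8 to 36.8 and 33.6 to 34.3). Median log2 differences were 2.46 for macrophage, 0.85 for cholangiocyte, 0.98 for stellate cell and fibroblast, and -0.34 for endothelial markers. Of 6 striated muscle and 5 adipocyte markers 0 were called by limma (2 and 1 at an unadjusted p under 0.05). All of them lay at signals of 1.55 to 3.47, near or below the median of all genes (2.999). Their summed signals were 15.2 to 17.0 and 14.0 to 15.0 for muscle, and 12.3 to 12.4 and 11.6 to 12.1 for adipocytes. No marker is listed at 0, and the part of cell composition in the differences below was not tested.

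Entry of long-chain fatty acids into mitochondria showed no called change. Cpt1a, the rate-controlling carnitine palmitoyltransferase of the outer membrane, had signals of 9.09 and 9.53 on normal diet and 9.13 and 9.68 on MCD diet. The diets overlapped, and the log2 difference was 0.09 (95% interval -0.47 to 0.66). Cpt2, which rebuilds acyl-CoA inside the mitochondrion, differed by -0.37 ± 0.16 (here and below, ± gives the standard error of a log2 difference from 2 arrays a diet). Slc25a20, the carnitine-acylcarnitine translocase between them, differed by -0.23 ± 0.21. Limma called 0 of these 3, and 0 of the 3 had an unadjusted p under 0.05. Their 95% intervals reach from -0.76 to 0.66, and differences within them cannot be told from none here. Of 4 further genes of carnitine supply (the transporter Slc22a5, carnitine acetyltransferase Crat, and the synthesis enzymes Bbox1 and Tmlhe) 0 were called and 0 had an unadjusted p under 0.05, with differences of 0.02 to 0.64.

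In the mitochondrial beta oxidation cycle, the members had log2 differences of -0.58 to 0.14, most of them below 0. Of 13, Echs1 was called lower and 0 were called higher by limma. The unadjusted p was under 0.05 for 5 of the 13, beside 5362 of all 22180 genes. Echs1, the enoyl-CoA hydratase of short chains, measured 8.84 and 8.81 on normal diet and 8.37 and 8.19 on MCD diet. These arrays do not overlap, and the gene fell by 0.54 ± 0.13 (limma adjusted p = 0.0498). The call sits at the threshold: it was lost without any 1 of the 4 arrays (adjusted p 0.101 to 0.169), under quantile normalization (adjusted p = 0.0716) and with all rows tested (adjusted p = 0.0505). With the replicate number as a block, Echs1 was not called either (limma adjusted p = 0.072). Acadvl, the very long-chain acyl-CoA dehydrogenase, measured 7.97 and 8.19 against 7.59 and 7.47 and missed the threshold (-0.55 ± 0.14, adjusted p = 0.0595). It passed with arrays centred on their median (adjusted p = 0.0442) and without the dimmest 50% of genes (adjusted p = 0.0495). Acaa2, the thiolase that closes the cycle, measured 10.0 and 10.2 against 9.70 and 9.61 (-0.44 ± 0.13, adjusted p = 0.0881), and passed with an intensity trend (adjusted p = 0.0474).

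The other dehydrogenases did not pass. Acadm, the medium-chain enzyme, measured 9.85 and 9.93 on normal diet and 9.95 and 10.1 on MCD diet, a difference of 0.13 with an interval of -0.17 to 0.44. Acadl, the long-chain enzyme, differed by 0.12 ± 0.15, Acads, the short-chain enzyme, by -0.17 ± 0.12, and the less studied Acad10 by -0.58 ± 0.24. The trifunctional protein joins hydratase, dehydrogenase and thiolase activities in 2 kinds of subunit. Hadha, its alpha subunit, differed by 0.09 (interval -0.22 to 0.40), and Hadhb, its beta subunit, by 0.14 ± 0.20 at signals of 3.43 to 3.98, near the median of all genes. Hadh, the short-chain hydroxyacyl-CoA dehydrogenase, differed by -0.24 ± 0.14. Of the auxiliary enzymes for unsaturated chains, Eci1 (an enoyl-CoA isomerase) differed by -0.39 ± 0.13 and Decr1 (dienoyl-CoA reductase) by -0.23 ± 0.16. Etfdh, which passes the electrons of the dehydrogenases to ubiquinone, differed by -0.22 ± 0.13. Together with the shuttle, the 16 mitochondrial members had a median difference of -0.23, 11 below 0 and 5 above, beside a hepatocyte marker median of -0.10.

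Acad11, an acyl-CoA dehydrogenase reported in both organelles, fell from 8.96 and 9.23 on normal diet to 8.004 and 8.33 on MCD diet. The drop was 0.93 ± 0.17 (1.902-fold lower, limma adjusted p = 0.0236), and all MCD diet values lie below all normal diet values. The call was lost without normal diet replicate 2 (adjusted p = 0.107) and without MCD diet replicate 1 (adjusted p = 0.10).

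Peroxisomal members went both ways, and 1 of 7 was called. The unadjusted p was under 0.05 for 3 of the 7, all lower. Acaa1b, a peroxisomal 3-ketoacyl-CoA thiolase, measured 8.54 and 8.70 on normal diet and 7.99 and 7.98 on MCD diet. It fell by 0.64 ± 0.13 (1.55-fold lower, limma adjusted p = 0.03), with no overlap, but the call was lost without any 1 array (adjusted p 0.0696 to 0.144) and under quantile normalization (adjusted p = 0.0513). With the replicate number as a block, Acaa1b was not called either (limma adjusted p = 0.0514). Its close copy Acaa1a measured 5.69 and 5.58 against 5.42 and 5.16 (-0.34 ± 0.14, adjusted p = 0.206). Since these genes are near-identical, their rows may share signal, and how the difference divides between them is uncertain. Decr2, the peroxisomal dienoyl-CoA reductase, differed by -0.52 ± 0.18 and the enoyl-CoA isomerase Eci2 by -0.01 (interval -0.39 to 0.37).

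Ehhadh, Crot and Pex11a were not called. Ehhadh, the bifunctional hydratase and dehydrogenase, measured 8.55 and 8.68 on normal diet and 8.49 and 9.31 on MCD diet, where 1 array lay below and 1 above both controls (0.29 ± 0.26, adjusted p = 0.586). Crot, which exports shortened chains as carnitine esters, measured 10.2 and 9.96 against 10.2 and 10.5 (0.29 ± 0.16). Pex11a, a factor of peroxisome division, varied within the normal diet, at 6.27 and 7.55, against 7.24 and 7.66 on the MCD diet. Its difference of 0.54 ± 0.40 was not called (adjusted p = 0.488). The value depends on which normal diet array is used: it was -0.10 without replicate 1 (adjusted p = 0.871), and 1.18 without replicate 2, which passed (adjusted p = 0.0493). The median of the 7 peroxisomal members was -0.01, a value that turned to 0.04 under quantile normalization, so no direction is given for them as a group.

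Omega hydroxylation divided within 1 gene family. Cyp4a14, a fatty acid omega hydroxylase strongly induced by PPAR-alpha activators, rose from 8.78 and 9.06 on normal diet to 10.9 and 10.9 on MCD diet. The rise was 1.98 ± 0.14 on the log2 scale (interval 1.63 to 2.33, limma adjusted p = 0.00131). Cyp4a12a, the male-predominant hydroxylase of mouse liver that is also known for making the eicosanoid 20-HETE, went the other way, from 7.88 and 7.72 to 2.90 and 3.65. It fell by 4.52 ± 0.25 (limma adjusted p = 0.000599) to a signal near the median of all genes, so the size of the fall is uncertain. Its neighbour and close copy Cyp4a12b measured 8.25 and 8.43 against 4.88 and 5.35 and fell by 3.23 ± 0.19 (limma adjusted p = 0.00064). Rows of such close copies may share signal, so these falls may not be separate. All 3 kept their calls under every alternative run (highest adjusted p 0.0109 for Cyp4a14, 0.00347 for Cyp4a12a and 0.00437 for Cyp4a12b).

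In the RefSeq gene order of assembly GRCm38.p6, the Cyp4a genes lie side by side on chromosome 4 with 0 other protein-coding genes between them, in the order Cyp4a29, Cyp4a12a, Cyp4a12b, Cyp4a30b, Cyp4a14, Cyp4a10, Cyp4a31, Cyp4a32. Cyp4a31, near the other end of the cluster, rose by 3.89 ± 0.17 (14.8-fold, adjusted p = 0.000349), from 5.30 and 5.63 to 9.50 and 9.19. That signal may include close copies. Elsewhere in the cluster, Cyp4a29 and Cyp4a30b differed by 0.00 ± 0.12 and -0.14 ± 0.15 at signals of 1.58 to 2.13. The 2 genes called lower thus adjoin each other, and the 2 called higher lie further along. Beyond the cluster, Cyp4f14 and Cyp4f15, hydroxylases of the related Cyp4f subfamily, fell by 3.16 ± 0.14 and 1.46 ± 0.24. Of 9 further omega oxidation genes measured 4 fell and 1 rose, with a median of -0.71.

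**Figure D2:**
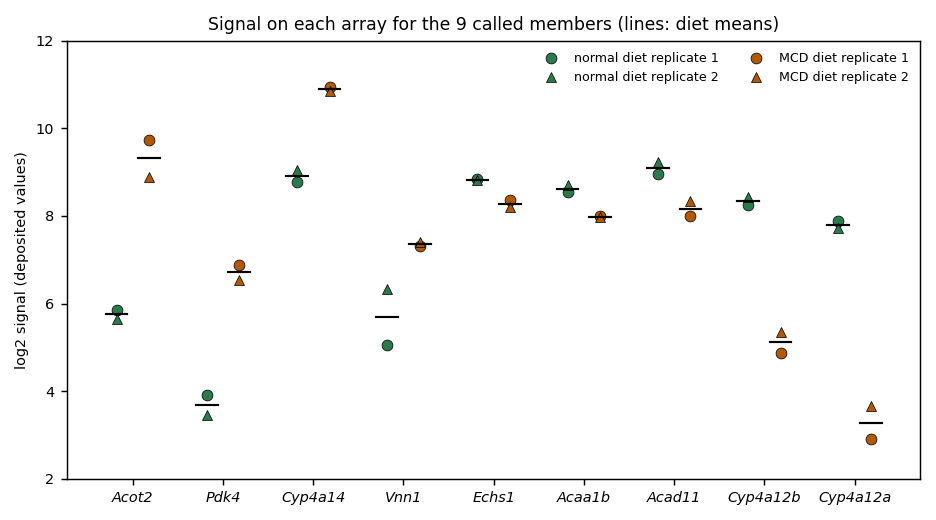
The vertical axis gives the deposited log2 signal on each array for the 9 called genes, normal diet in green and MCD diet in orange, circles for replicate 1 and triangles for replicate 2, with lines at the diet means of 2 arrays. The diets are separate for each gene shown; the gap is narrow for Echs1 and Acaa1b, and the normal diet values of Vnn1 are spread from 5.05 to 6.32.

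The acyl-CoA thioesterases included the largest rise among the 36 genes. Acot2, the mitochondrial thioesterase of long chains, had signals of 5.84 and 5.66 on normal diet and 9.74 and 8.90 on MCD diet. It rose by 3.57 ± 0.27 on the log2 scale (11.9-fold, interval 2.90 to 4.24, limma adjusted p = 0.00156), and the call held under every alternative run (highest adjusted p 0.00957). Acot1, its cytosolic counterpart and close copy, had 4.502 and 5.91 on normal diet and 3.75 and 3.96 on MCD diet. Both MCD diet values are the lower ones, but the normal diet arrays are far apart, and the difference of -1.35 ± 0.43 was not called (adjusted p = 0.114). Without normal diet replicate 1, the difference was -2.06 and passed (adjusted p = 0.00568), and without normal diet replicate 2 it was -0.64 and did not (adjusted p = 0.129).

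The peroxisomal thioesterases Acot3 and Acot4 varied more between arrays of a diet than between diets. Acot3 measured 4.33 and 5.63 on normal diet and 4.03 and 6.28 on MCD diet (0.17 ± 0.76, adjusted p = 0.928). Acot4 measured 5.12 and 5.69 against 4.82 and 5.65 (-0.17 ± 0.31), and its dimmer row differed by -0.24 ± 0.15. Acot12, a cytosolic thioesterase that acts on acetyl-CoA, differed by -0.22 ± 0.15 at signals of 8.44 to 8.88.

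Acot2, Acot1, Acot4, Acot3, Acot5 and Acot6 follow each other in that order on chromosome 12 in the RefSeq gene order, with 0 other protein-coding genes between them. Acot6 rose by 0.76 ± 0.12 (adjusted p = 0.0167) from a dim signal of 2.26 and 2.21 to 2.92 and 3.07, and Acot5 differed by -0.05 ± 0.15 at 1.64 to 1.93. Acot1 starts next to Acot2 in this cluster, and their differences were -1.35 and 3.57. The rows of such close copies may share signal; how the difference divides between them is uncertain. Among 9 further thioesterase genes 1 rose (Acot6) and 1 fell (Acot7, -1.005 ± 0.15, adjusted p = 0.0116), with a median of -0.05.

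**Figure D3:**
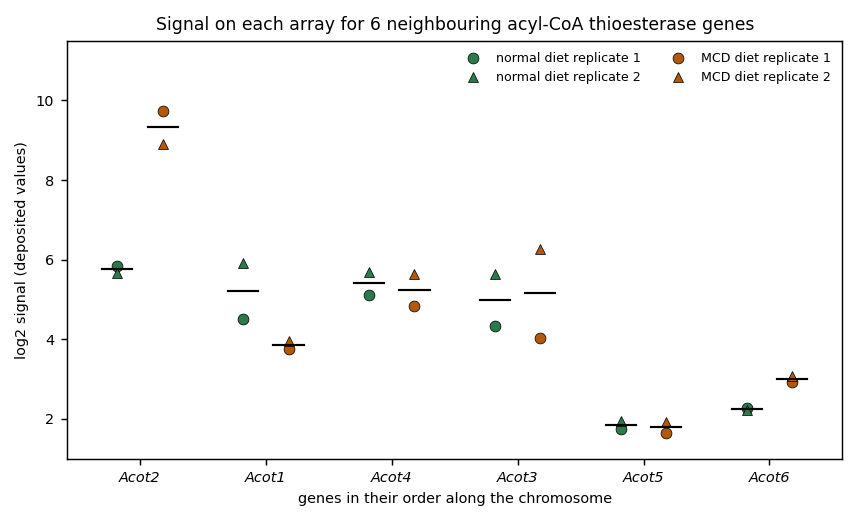
The vertical axis gives the deposited log2 signal on each array for 6 thioesterase genes, placed in their order along the chromosome (spacing not to scale), with symbols for diet and replicate and lines at the means of 2 arrays per diet. Acot2 alone of the 6 stands above 8 on the MCD diet arrays, and Acot3 is split by replicate within each diet.

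The 250 bases before the annotated starts of Acot2 and Acot1 are shown because these adjoining genes have differences of 3.57 (called) and -1.35 (not called), followed by those of Pdk4 and Echs1, a called rise and a called fall. All are from RefSeq, build GRCm38.p6, 5′ to 3′ on the gene's own strand: Acot2 at chr12:83987611-83987860 (plus strand), Acot1 at chr12:84009252-84009501 (plus), Pdk4 at chr6:5496279-5496528 (minus) and Echs1 at chr7:140116422-140116671 (minus). Capitals in Echs1 mark a match to the response element of PPAR described next, and the other 3 hold none.
Acot2: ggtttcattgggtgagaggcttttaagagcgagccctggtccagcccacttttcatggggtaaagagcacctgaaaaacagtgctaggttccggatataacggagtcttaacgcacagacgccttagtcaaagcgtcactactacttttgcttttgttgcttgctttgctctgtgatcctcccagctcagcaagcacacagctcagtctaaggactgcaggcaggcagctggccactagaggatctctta
Acot1: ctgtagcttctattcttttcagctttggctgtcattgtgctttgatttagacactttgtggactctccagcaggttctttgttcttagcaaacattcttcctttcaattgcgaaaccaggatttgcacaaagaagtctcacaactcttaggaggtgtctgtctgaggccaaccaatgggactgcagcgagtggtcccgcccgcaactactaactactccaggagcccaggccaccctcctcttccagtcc
Pdk4: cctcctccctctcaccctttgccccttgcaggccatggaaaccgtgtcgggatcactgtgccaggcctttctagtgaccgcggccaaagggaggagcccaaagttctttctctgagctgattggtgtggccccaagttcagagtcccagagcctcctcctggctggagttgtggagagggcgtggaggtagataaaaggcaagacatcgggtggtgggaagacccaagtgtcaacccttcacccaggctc
Echs1: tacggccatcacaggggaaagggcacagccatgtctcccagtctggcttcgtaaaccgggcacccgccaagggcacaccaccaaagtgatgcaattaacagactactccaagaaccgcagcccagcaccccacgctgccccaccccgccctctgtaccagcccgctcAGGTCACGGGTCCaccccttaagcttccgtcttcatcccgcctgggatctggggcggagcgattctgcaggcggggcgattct

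The element searched was AGGTCANAGGTCA, a direct repeat of a hexamer with 1 free base, on both strands and with at most 2 mismatches over its 12 fixed letters. The window ran from 250 bases before to 50 bases after each start. Promoters were found for 31 of the 39 genes, with 33 starts. Of the 33 promoters 4 held a match (12.12%), against 3.86% of all 32851 promoters in the table. The matches before a start, read along the element with fitting letters in capitals, are given below, at chr13:91741411-91741423 for Acot12, chr12:84038366-84038378 for Acot4 and chr7:140116492-140116504 for Echs1 (all minus strand).
Acot12: AGGTgAgAGGTCA
Acot4: cGGcCAaAGGTCA
Echs1: AGGTCAcgGGTCc

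The fourth match, of Slc25a20, lies after its start. Of these 4 genes, Echs1 was called (lower) and Acot12, Acot4 and Slc25a20 were not. Acot2 and Pdk4, which rose, had at best 3 and 4 mismatches in this window, and no promoter of the Cyp4a genes or of Vnn1 was in the table. A match describes letters in this window only.

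Among the regulators and targets of PPAR-alpha, Pdk4 and Vnn1 rose and Ppargc1a was not called. Pdk4, the pyruvate dehydrogenase kinase that limits the entry of pyruvate into the citric acid cycle, measured 3.92 and 3.46 on normal diet and 6.87 and 6.54 on MCD diet. It rose by 3.02 ± 0.20 (8.12-fold, interval 2.54 to 3.51, limma adjusted p = 0.00102) from a normal diet signal near the median of all genes. The call held under every alternative run (highest adjusted p 0.0075). Among its relatives, Pdk2 fell by 0.71 ± 0.12 (adjusted p = 0.0214), while Pdk1 and Pdk3 differed by -0.68 ± 0.17 and 0.35 ± 0.14. Vnn1, the pantetheinase that recycles the vitamin part of coenzyme A, measured 5.05 and 6.32 against 7.31 and 7.40. It rose by 1.67 ± 0.38 (adjusted p = 0.0484), with the MCD diet arrays close together and above both normal diet arrays. The size rests on the normal diet arrays, with a difference of 1.03 without replicate 1 and 2.30 without replicate 2. The call was lost without MCD diet replicate 1 (adjusted p = 0.16), without MCD diet replicate 2 (adjusted p = 0.152) and with arrays centred on their median (adjusted p = 0.0505).

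Ppargc1a, the coactivator of mitochondrial biogenesis and of the fasting response, measured 6.77 and 5.89 on normal diet and 6.59 and 6.52 on MCD diet. The MCD diet values lie between the normal diet ones (0.23 ± 0.28, adjusted p = 0.695). Bdh1, the enzyme that makes the ketone body beta-hydroxybutyrate, measured 6.85 and 6.72 against 6.83 and 7.06, a difference of 0.16 with an interval of -0.18 to 0.50. Ppara itself measured 7.09 and 7.71 against 7.14 and 7.09 (-0.29 ± 0.21, adjusted p = 0.482). Fgf21, a hormone of the fasting liver that PPAR-alpha induces, rose by 1.38 ± 0.31 (adjusted p = 0.0436), from 2.65 and 3.13 to 3.84 and 4.70. In the same list of 17 regulators and targets, Fabp1, the fatty acid binding protein of liver, fell by 1.75 ± 0.21. Retsat, a retinol saturase, fell by 1.32 ± 0.12. In that list 2 rose and 4 fell, with a median of -0.37. PPAR-alpha targets thus include genes called higher (for example Cyp4a14, Pdk4, Vnn1, Fgf21), lower (for example Fabp1) and not called (for example Cpt1a, Ehhadh, Pex11a). These are examples and not a full list, so the number in each class is not a tally.

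Around the members, the further genes of these pathways were lower more often than higher. Of 86 measured, 25 fell and 8 rose in limma, with a median difference of -0.38. Calls made up 38.4% of these genes, beside 9.98% of all genes and 18.0% of the brightest 25% of genes. The 33 calls came to 18 without normal diet replicate 2 and to 21 without normal diet replicate 1. Fatty acid activation, the step that makes acyl-CoA, fell in 5 of 7 genes and rose in 1 (Acsl4). The bile acid and fatty acid CoA ligase Slc27a5 fell by 2.05 ± 0.12 (4.15-fold lower, adjusted p = 0.00064), and the medium-chain synthetases Acsm5 and Acsm1 by 1.46 ± 0.15 and 1.41 ± 0.13. Among 8 other mitochondrial oxidation genes 3 fell and 0 rose in limma (6 at an unadjusted p under 0.05): Acadsb by 1.26 ± 0.14, Acad8 by 0.92 ± 0.12 and Ivd by 0.91 ± 0.13. These 3 are dehydrogenases of branched-chain amino acid breakdown, not of straight fatty acids.

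Peroxisomal genes outside the membership fell in 5 of 16 and rose in 1. Nudt7, a hydrolase of coenzyme A in peroxisomes, fell by 2.19 ± 0.13 (4.56-fold lower, adjusted p = 0.00064) and Pecr, a trans-enoyl-CoA reductase, by 1.67 ± 0.21. Abcd2, a peroxisomal transporter of very long-chain acyl-CoA, rose by 2.49 ± 0.42 (adjusted p = 0.0187), from 4.72 and 3.72 to 6.21 and 7.21. Of 12 genes of peroxisome biogenesis 2 fell and 0 rose in limma (4 at an unadjusted p under 0.05), Pex6 by 0.78 ± 0.12 and Pex11g by 0.55 ± 0.12.

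Other ketone body genes went in opposite directions. Oxct1, which breaks ketone bodies down and is low in normal hepatocytes, rose by 1.55 ± 0.16 (adjusted p = 0.0036), from 3.62 and 3.40 to 5.20 and 4.91. Slc16a1, a monocarboxylate transporter that carries ketone bodies and lactate, rose by 1.003 ± 0.16. Bdh2, a cytosolic dehydrogenase once described as acting on ketone bodies, fell by 2.41 ± 0.16 (5.31-fold lower, adjusted p = 0.000951), to signals of 2.74 and 3.06 near the median of all genes, so the size of its fall is uncertain too. Macrophage and cholangiocyte markers rose in the same livers, and their part in the rises of Oxct1, Slc16a1, Abcd2 and Acsl4 was not tested.

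**Figure D4:**
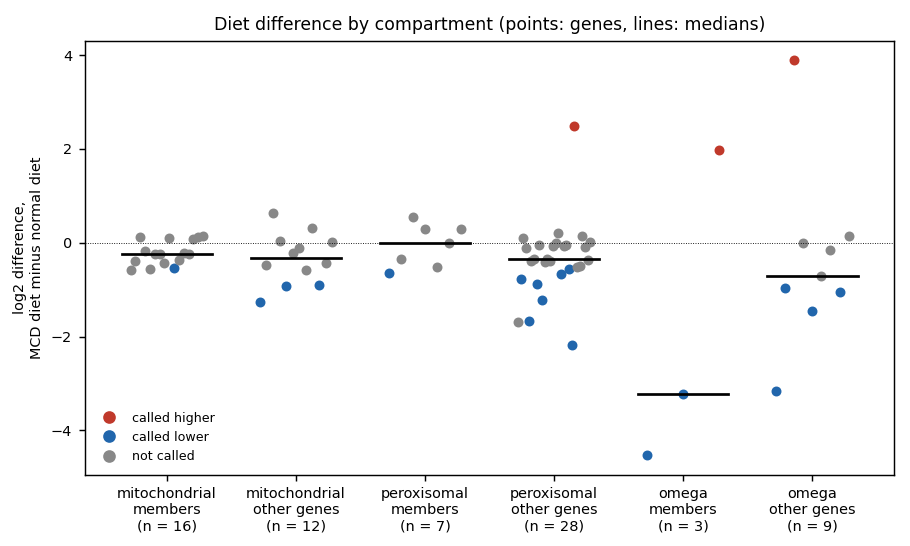
The vertical axis gives the log2 difference between diets (MCD diet minus normal diet) for members and further genes of the mitochondrial, peroxisomal and omega routes; each point is a gene, colour marks its call, and lines are medians. The further peroxisomal genes include those of peroxisome biogenesis. The further mitochondrial genes called lower are dehydrogenases of branched-chain amino acid breakdown. The mitochondrial members cluster near 0 with a median of -0.23, while the 3 omega members lie at -4.52, -3.23 and 1.98.

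In the counts by route, Acad11, which is assigned to both organelles and was called lower, is left out of either. Set side by side, limma called 1 of 16 mitochondrial members (6.25%), 1 of 7 peroxisomal members (14.3%) and 3 of 3 omega members. Among all genes 9.98% were called, and among the brightest 25% of genes 18.0%. The mitochondrial and peroxisomal calls in these counts are those of Echs1 and Acaa1b, which were lost without any 1 array, whereas the 3 omega calls held. For the further genes listed beside these routes the counts were 3 of 12, 8 of 28 and 5 of 9. The 3 mitochondrial calls there are Acadsb, Acad8 and Ivd, dehydrogenases of branched-chain amino acid breakdown. The 28 peroxisomal genes include 12 of peroxisome biogenesis, which are not oxidation enzymes. Median differences were -0.23, -0.01 and -3.23 for the members, and -0.32, -0.36 and -0.71 for the further genes. Genes are not replicates, so the difference between routes was not tested, and the omega median rests on 3 genes of 1 family, 2 of them close copies.

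The members also varied between the arrays of a diet. Replicate 2 exceeded replicate 1 in both diets for 19 of 36 members (52.8%), against 26.8% of all genes. Acot3 was higher in replicate 2 by 1.30 on normal diet and 2.25 on MCD diet, Acot4 by 0.57 and 0.83, Cpt1a by 0.44 and 0.55, and Pex11a by 1.28 and 0.42. Acad10 was lower in replicate 2 by 0.50 and 0.52, and Pdk4 by 0.46 and 0.33. All 3 members of the carnitine shuttle were higher in replicate 2 of both diets. Among the marker lists, this held for 2 of 10 hepatocyte and 4 of 6 striated muscle markers. Replicate 2 was lower in both diets for 6 of 9 macrophage markers, against 5415 of all 22180 genes. The part of these cell types in the spread of the members was not tested. The labels do not say that replicates with the same number share a cage, day or batch. The 95% interval of the diet difference ran from -1.67 to 2.02 for Acot3, from -0.44 to 1.53 for Pex11a and from -0.93 to 0.59 for Acot4.

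**Figure D5:**
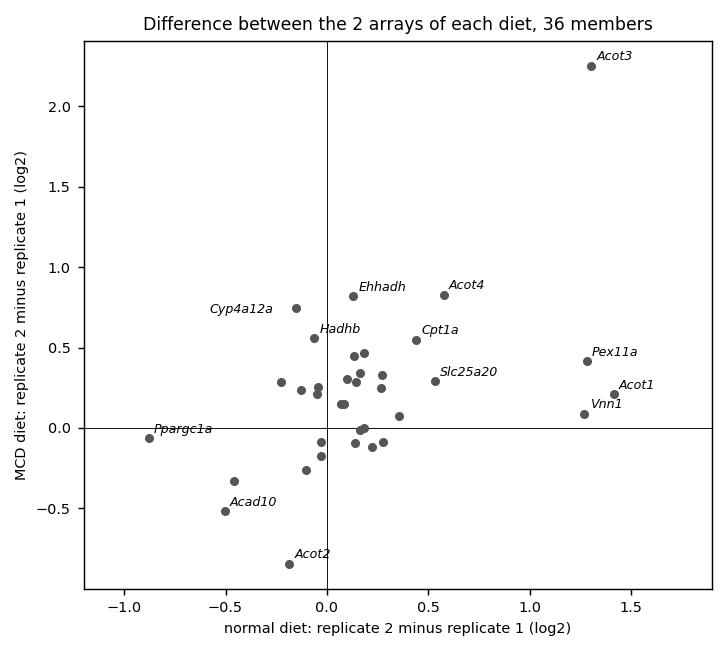
Each point is 1 of the 36 genes, with the difference between the arrays of the normal diet on the horizontal axis and of the MCD diet on the vertical axis (replicate 2 minus replicate 1, log2). The upper right quadrant holds 19 genes, with Acot3 furthest out at 1.30 and 2.25.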

How the data were processed

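The authors deposited 1 value per transcript row and array, from Mouse Gene 2.1 ST array strips. The submitters' processing notes name Transcriptome Analysis Console. Its version, background correction, summarization and normalization steps were not found in the labels or file headers. The deposited values were taken to be on a log2 scale; the log base is not stated and was inferred from their range, so all fold changes depend on it. Unused columns of per-sample values numbered 0.

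Of 34472 rows, 23521 name 1 gene, 1814 several and 9137 none in the platform annotation. Rows naming 1 gene gave 22180 genes, each by its row of highest mean signal. Of these rows 23328 matched the RefSeq gene table of GRCm38.p6, which updated 0 symbols. Groups came from the sample titles. The values were tested as deposited with limma 3.58.1 in R 4.3.3 (two-sided, 4 arrays, no block, Benjamini-Hochberg over all 22180 genes). A check of the code on simulated arrays used independent noise, with no pattern shared between replicates, and lends no support to the p-values here. Moderation raised the 2 residual degrees of freedom to 6.06. No detection values were analysed; the number of arrays limits the precision. Array medians were 2.96 and 2.97 on normal diet and 3.01 and 3.05 on MCD diet.

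All measured members are given. Of the further pathway genes, up to 3 called genes per list with the largest difference were named, plus Ppara and Fgf21. Acsl4, Pdk1 to Pdk3, Acot5, Cyp4a29, Cyp4a30b, Apoa1 and the carnitine supply genes were named after their values were seen. The members and lists were chosen with earlier results of these data known. The alternatives were quantile normalization, median centring, an intensity trend, a filter removing the dimmest 25% or 50% of genes, the mean of a gene's rows, all rows tested, an unadjusted p under 0.05 with 2-fold change, a replicate block, and leaving out each array. Promoters and their coordinates are from RefSeq (GRCm38.p6).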

Additional observations from a re-analysis of the deposited data

How the results depend on the processing

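No called gene of the 36 changed direction under any of the 13 alternatives. The calls of Acot2, Pdk4, Cyp4a14, Cyp4a12a and Cyp4a12b held under all of them, while those of Vnn1, Acad11, Acaa1b and Echs1 were each lost under some. In all, 425 of 468 comparisons of a gene with an alternative kept direction and side of the threshold, 21 lost a call, 6 gained one and 16, all of genes not called, changed sign. Under quantile normalization these were Hadhb (-0.0293) and Eci2 (0.0362). The others came from leaving out 1 array, where differences ran from -0.18 to 0.37 for Cpt1a, -0.50 to 0.0318 for Slc25a20, -0.0361 to 0.27 for Acadl, -0.14 to 0.41 for Hadhb, -0.19 to 0.16 for Eci2, -0.12 to 0.70 for Ehhadh, -0.10 to 1.18 for Pex11a, -0.95 to 1.30 for Acot3, -0.58 to 0.25 for Acot4 and -0.21 to 0.67 for Ppargc1a. Against 5 members called lower, 3 were called under quantile normalization, with a replicate block and at an unadjusted p under 0.05 with 2-fold change, and 2 to 4 when 1 array was left out. The members called numbered 5 to 8 without 1 array (9 with all). Mitochondrial members called were 0 under quantile normalization, with all rows tested, with a replicate block and at 2-fold, and 2 with arrays centred on their median, without the dimmest 50% of genes and with an intensity trend, against 1; they were 0 without any 1 array. Peroxisomal members called were 0 under quantile normalization, with a replicate block and at 2-fold, and 0 to 1 without 1 array, against 1 (Pex11a, not Acaa1b, without normal diet replicate 2). The further pathway genes called, 33, were 18 to 26 without 1 array. Over all genes, 2214 calls became 1155 at 2-fold and 1050 to 1493 without 1 array. The share of these calls that was higher, 63.8%, was 55.5% under quantile normalization, 54.0% with arrays centred on their median and 63.1% to 67.7% without 1 array. The mitochondrial median of -0.23 was -0.14 under quantile normalization and -0.30 with arrays centred on their median, and -0.34 to -0.12 without 1 array. The peroxisomal median of -0.01 ranged from -0.19 to 0.16 without 1 array. The cause of these shifts was not tested.

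The labels number the replicates of both diets 1 and 2. With 2 pairs, the correlation over all genes of the difference between replicates was 0.0537. A correlation over all genes cannot decide whether the samples are paired. Among the members, 52.8% were higher in replicate 2 of both diets, against 26.8% of all genes. With the replicate number as a block, 7 members and 1950 genes were called; Echs1 (adjusted p = 0.072) and Acaa1b (adjusted p = 0.0514) were not. Signals near the median of all genes, as for Cyp4a12a on MCD diet, Pdk4 on normal diet and Hadhb, limit what their differences can show.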
